A study of Homo sapiens with 9 samples.

Results

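The BCL2 family was described by 10 of its genes, which are 10 of the 20030 genes in the deposited tables, and all 10 had counts in every library. They were selected by gene symbol as 3 anti-apoptotic members (BCL2, BCL2L1 and MCL1), 2 effectors (BAX and BAK1) and 5 BH3-only members (BBC3, PMAIP1, BIK, BID and BCL2L11). The study sequenced poly(A)-selected RNA of the human hepatocellular carcinoma (HCC) line MHCC97L and of its drug-resistant lines MHCC97L-Src and MHCC97L-Oxa, with 3 libraries per line and 9 in all. Wild-type MHCC97L received no drug. MHCC97L-Src was selected with rising concentrations of saracatinib, an inhibitor of SRC family kinases, until it was stably resistant to 4 μmol/L. MHCC97L-Oxa was selected with oxaliplatin, a platinum drug that crosslinks DNA, and was stably resistant to 2 μmol/L. The labels name no engineered genetic change, and all lines were grown in the same medium with fetal bovine serum. Each resistant state is represented by a single derived line. The labels and the methods do not state whether a line is 1 clone, or whether the drug was in the medium when RNA was taken.

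BCL2 family proteins decide whether the outer mitochondrial membrane is opened during apoptosis. BAX and BAK1 form the pores through which cytochrome c leaves the mitochondrion, and the anti-apoptotic proteins bind and restrain them. BH3-only proteins are the sensors of the family. They are induced or activated by DNA damage, growth factor withdrawal or stress, and they occupy the groove of the anti-apoptotic proteins or engage the effectors directly. Hepatocytes and HCC cells are known to depend strongly on MCL1 and BCL-xL, the product of BCL2L1. Much of this control is exerted on protein stability, phosphorylation and cleavage, which RNA counts do not show.

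Total gene counts lay between 16970486 and 18209213 in the 9 libraries, and 3 counts, taken as the smallest detectable amount, equalled 0.165 to 0.177 CPM, which are read counts scaled to the library total. This floor covers counting error only, since reads amplified by PCR without molecular identifiers are not independent molecules. MHCC97L replicate 1 stood apart from the other libraries. GC content and length of the genes accounted for 69.5% of the variance of its deviation from the mean of the 9 libraries, against 4.40% to 50.5% in the others. The 50.5% was that of MHCC97L-Src replicate 2. The rank correlation of the deviation with GC content was -0.78 in MHCC97L replicate 1 and 0.70 in MHCC97L-Src replicate 2. It was positive in every library of the resistant lines, from 0.17 upwards. Of 13 hepatocyte markers, 7 had at most 3 counts in every library, and ALB, AFP, APOB and TTR had none, while KRT8 and KRT18, which other epithelia also express, were above 10 counts in all. Of 9 markers of blood, endothelial and stromal cells, PTPRC and CD3E had no counts, and CD68, PECAM1, COL1A1 and ACTA2 were above 10 counts in all libraries. Some of these markers passed the adjusted test by edgeR. SERPINA1 had 1 count in each wild-type library and 31, 14 and 14 in MHCC97L-Oxa (adjusted p of 0.0323, edgeR), and 22, 9 and 10 in MHCC97L-Src, where it was under the filter on low counts. In the comparison of both resistant lines KRT8 (log2 fold change of 0.87, adjusted p of 0.0136) and KRT18 (0.91, adjusted p of 0.00471) were higher in MHCC97L-Src and CD68 (-0.75, adjusted p of 0.0116) was lower by edgeR. The part of these differences in the results was not tested. The paper speaks of independent experiments, but the labels do not say that the libraries of a line came from separate cultures. P-values therefore measure the spread between these libraries, which may be technical.

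PMAIP1, MCL1, BCL2 and BCL2L11, the members of lowest GC content, were higher in MHCC97L replicate 1 than in replicates 2 and 3 on average. All other members were lower, and among these the size of the displacement did not follow GC content. PMAIP1, whose longest transcript has a GC content of 37.2%, was 5.12-fold higher in MHCC97L replicate 1 than the geometric mean of replicates 2 and 3. MCL1 (45.1% GC) was 3.99-fold higher and BCL2 (45.6% GC) was 2.70-fold higher. On the other side, BID (49.7% GC) was 1.56-fold lower and BIK (56.0% GC) 1.80-fold lower. BCL2L1 (56.9% GC) was 1.66-fold lower, BAK1 (58.8% GC) 1.63-fold lower and BAX (58.9% GC) 1.60-fold lower. BBC3, the most GC-rich member at 69.7%, was the least displaced, being 1.19-fold lower. Values without MHCC97L replicate 1 and after a correction for GC content and length are therefore given beside the results. Leaving out MHCC97L replicate 1 keeps MHCC97L-Src replicate 2 in the fit. MCL1, PMAIP1 and BCL2L11 had their lowest MHCC97L-Src values in that library. The part of base composition in the differences between lines was not tested.

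**Figure D1:**
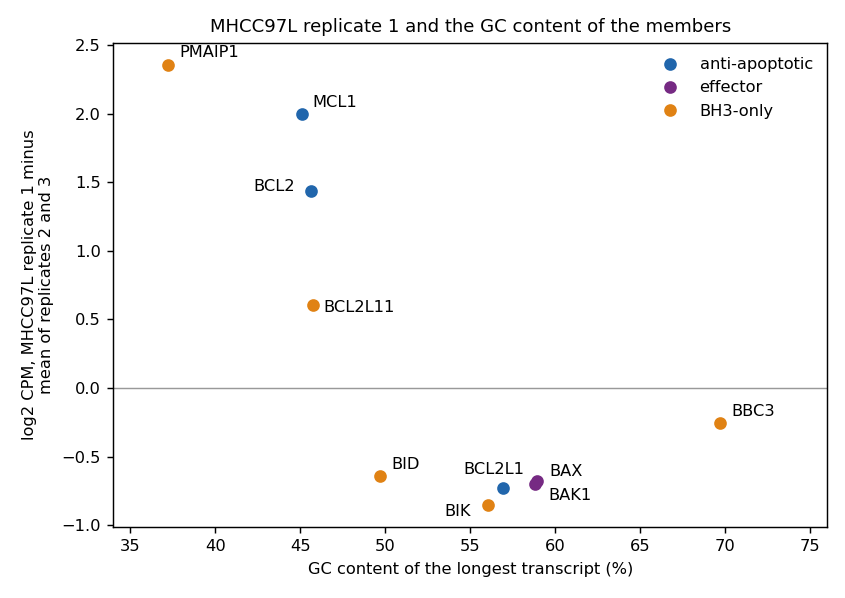
GC content (%) of the longest transcript of each member is plotted against the log2 CPM of MHCC97L replicate 1 minus the mean of the log2 CPM of MHCC97L replicates 2 and 3, with 1 point per member coloured by role. PMAIP1, MCL1, BCL2 and BCL2L11 lie above 0, from 0.61 to 2.36, and the other 6 members lie below 0, from -0.85 to -0.26.

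On the FPKM scale, which divides fragments by transcript length and library size, the family spanned more than 2 orders of magnitude in each line. MCL1 had the highest mean in wild-type cells with 56.2 ± 47.1 FPKM (SD, n = 3), followed by BCL2L1 with 45.5 ± 11.7 and BAX with 31.6 ± 6.26. The place of MCL1 rested on replicate 1. MCL1 was at 110, 32.6 and 25.5 FPKM in wild-type replicates 1, 2 and 3, BCL2L1 at 32.1, 50.2 and 54.1 and BAX at 24.4, 34.7 and 35.6, so that MCL1 was below both in replicates 2 and 3. BAK1 came next with 18.6 ± 4.72 FPKM, then BID with 9.27 ± 2.05 and PMAIP1 with 8.56 ± 8.29. The lowest levels were those of BCL2L11 with 3.85 ± 1.28 FPKM, BBC3 with 1.81 ± 0.231, BIK with 0.628 ± 0.303 and BCL2 with 0.347 ± 0.225. The ranges of neighbours in this order overlapped for MCL1 and BCL2L1, for BCL2L1 and BAX, for BID and PMAIP1, for PMAIP1 and BCL2L11, and for BIK and BCL2. BCL2, the founding member of the family, supplied 0.137% to 0.437% of the summed FPKM of the 3 anti-apoptotic members in the 9 libraries, so that this sum was almost entirely MCL1 and BCL2L1. In MHCC97L-Src, BAX was at 37.9 ± 3.79 FPKM and MCL1 at 34.7 ± 20.4, with overlapping ranges. In MHCC97L-Oxa, BBC3 with 8.08 ± 1.54 FPKM stood above BCL2L11 with 4.73 ± 0.780, and their ranges did not overlap.

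Of the 10 members, BBC3 alone passed the adjusted test, and it did so in MHCC97L-Oxa. In the comparison of MHCC97L-Src with MHCC97L, edgeR's quasi-likelihood test gave 0 of 10 members an adjusted p under 0.05, where 2.13% of the 12037 genes tested passed. Of all genes, 1.43% passed in the higher and 0.698% in the lower direction. DESeq2 called 1 member in this comparison, beside 6.01% of all genes higher and 11.6% lower. Limma-trend with a pseudocount of 1 or of 0.1 FPKM also called 1 member, beside 229 and 307 of the 12037 genes. The member was BBC3 each time. At an unadjusted p under 0.05 there were 3 members (BBC3, BIK and BID), against 29.5% of all genes tested. Of these, BBC3 and BIK also had an absolute log2 fold change over 1, which 24.6% of all genes reached and 5.74% reached in the higher direction. The same 3 members were the ones whose libraries did not overlap between the lines, all higher in MHCC97L-Src. Of the genes tested, 30.5% were separated, 18.3% upwards and 12.2% downwards.

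For MHCC97L-Oxa, 9 of the 10 members could be tested against MHCC97L, since BIK was under the filter on low counts. BBC3 was the 1 member called at an adjusted p under 0.05, against 0.953% of 12064 genes tested, with 0.771% higher and 0.182% lower. BBC3 was also the 1 member past an unadjusted p under 0.05, against 22.4% of all genes. It was the 1 member past the criterion of fold and unadjusted p, against 16.2% in either direction and 4.63% in the higher direction. It was the 1 member without overlap, against 29.5% in either direction and 19.1% in the higher direction. Between the resistant lines, 0 of 10 members had an adjusted p under 0.05 by edgeR, DESeq2 or limma-trend, where edgeR called 4.64% of 11994 genes, 2.12% higher and 2.52% lower in MHCC97L-Src. At an unadjusted p under 0.05 there were 3 members (BBC3, BIK and BID), against 19.5% of all genes tested. BIK also had a log2 fold change over 1. That criterion was met by 4.01% of the genes in either direction, 1.49% higher and 2.52% lower. BIK and BID were higher in every MHCC97L-Src library than in any MHCC97L-Oxa library and BBC3 and BCL2L1 were lower, where 27.6% of all genes were separated, 13.2% higher and 14.4% lower.

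Grouped by role, the fitted log2 fold changes of all 3 anti-apoptotic members were negative in both resistant lines, those of both effectors were positive, and those of the BH3-only members were positive for 5 of 5 tested in MHCC97L-Src and 4 of 4 tested in MHCC97L-Oxa. Of all genes tested, 6901 of 12037 were negative and 5136 positive in MHCC97L-Src. In MHCC97L-Oxa 7334 of 12064 were negative and 4730 positive. The median log2 fold change in MHCC97L-Src was -0.57 for the anti-apoptotic members, 0.29 for the effectors and 0.76 for the BH3-only members, beside -0.16 for all genes tested. In MHCC97L-Oxa it was -0.27, 0.17 and 0.32, beside -0.19 for all genes tested. Of BH3-only genes outside the members, BMF and HRK had a lower mean CPM in both resistant lines than in wild-type cells, and BAD had a higher one. In MHCC97L, MHCC97L-Src and MHCC97L-Oxa, BMF was at 34.4, 11.9 and 27.3 CPM. HRK was at 6.03, 3.57 and 3.23 CPM and BAD at 36.5, 42.2 and 47.3 CPM. BCL2L2, an anti-apoptotic gene outside the members, was nearly level at 16.4, 16.5 and 16.2 CPM. The comparisons share the 3 wild-type libraries. The values under 3 settings are drawn in the plot of fold changes. After the correction for GC content and length, the BH3-only members remained positive and BCL2L1 negative in both lines, while BAX and BAK1 became negative in both lines and MCL1 became positive in both. BCL2 became positive in MHCC97L-Src.

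**Figure D2:**
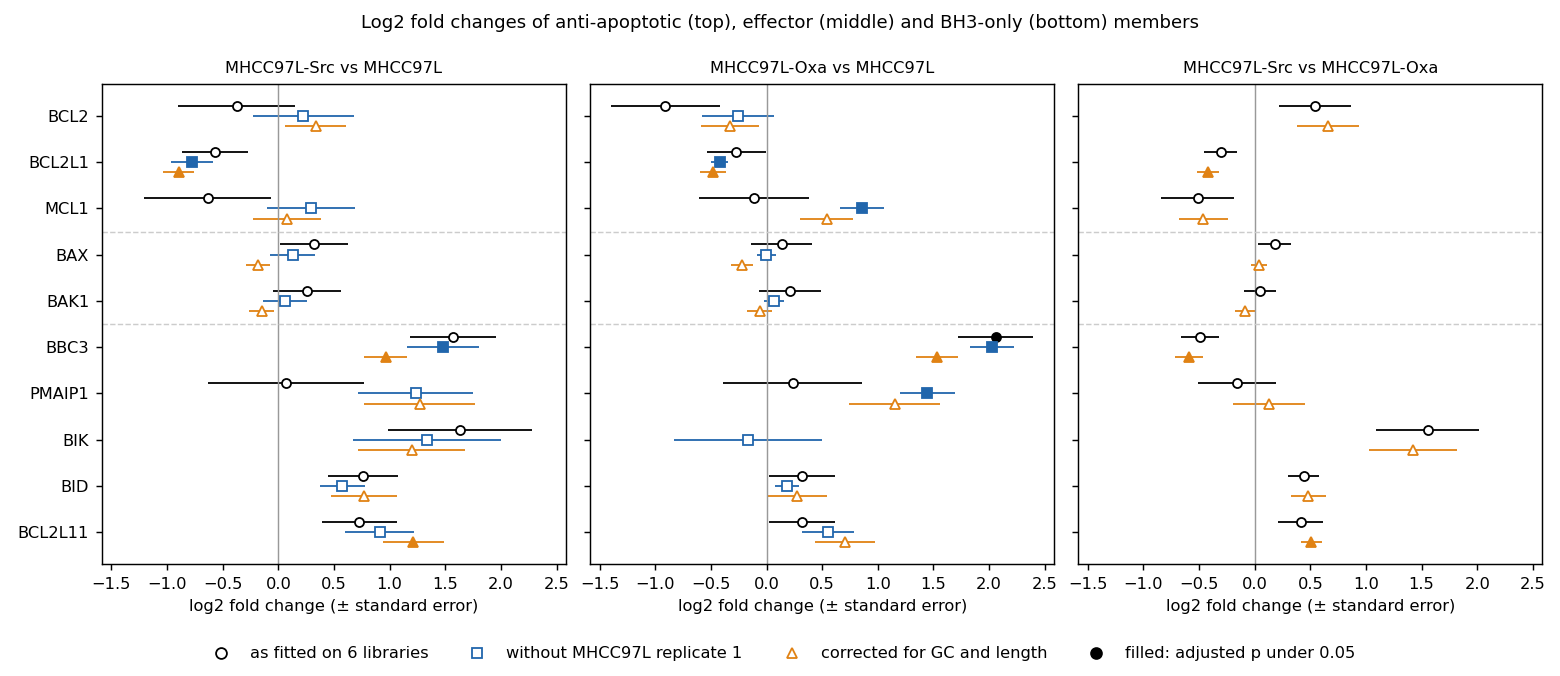
Log2 fold changes of the 10 members (horizontal axis, with standard errors) are shown in 3 comparisons, as fitted on the 6 libraries, without MHCC97L replicate 1 and with a correction for GC content and length, and filled symbols mark an adjusted p under 0.05. BBC3 is far to the right of 0 against MHCC97L under each setting, from 0.96 to 2.06, and BCL2L1 is to the left of 0 in each panel, while BAX, BAK1 and MCL1 move across 0 between settings.

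BCL2L1, which encodes the anti-apoptotic protein BCL-xL and by alternative splicing the shorter pro-apoptotic BCL-xS, lies on chromosome 20 of GRCh38 (31664452 to 31723989, minus strand). The counts do not separate the splice forms. It was read at 135, 215 and 235 CPM in MHCC97L replicates 1, 2 and 3, at 151, 166 and 169 CPM in MHCC97L-Oxa and at 126, 143 and 107 CPM in MHCC97L-Src. MHCC97L replicates 2 and 3 were above every resistant library, replicate 1 lay among them, and the MHCC97L-Src libraries were all below those of MHCC97L-Oxa. Its log2 fold change by edgeR was -0.57 ± 0.30 (SE) in MHCC97L-Src with an adjusted p of 0.228 and -0.27 ± 0.26 in MHCC97L-Oxa with an adjusted p of 0.520 (edgeR), and between the resistant lines it was -0.31 ± 0.15 (adjusted p of 0.282, edgeR). Without MHCC97L replicate 1, the log2 fold changes were -0.78 (adjusted p of 0.0492) and -0.42 (adjusted p of 0.0162), and with the GC and length correction they were -0.90 (adjusted p of 0.0114) and -0.48 (adjusted p of 0.0401). The corrected difference between the resistant lines was -0.42, with an adjusted p of 0.0349. In these fits 5.52% and 18.5% of all genes were called without the library, and 10.7%, 13% and 9.69% with the correction. Over all alternatives BCL2L1 was called in 3 of 16 in MHCC97L-Src and in 3 of 16 in MHCC97L-Oxa. Between the resistant lines it was called in 2 of 15.

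MCL1, a short-lived anti-apoptotic protein that binds BAK1 and several BH3-only proteins, is encoded on chromosome 1 (150574551 to 150579738, minus strand). It passed the adjusted test in no comparison, and its libraries differed widely within MHCC97L and MHCC97L-Src. It was read at 431, 123 and 94.9 CPM in MHCC97L replicates 1, 2 and 3, at 220, 204 and 149 CPM in MHCC97L-Oxa and at 123, 59.8 and 212 CPM in MHCC97L-Src. MHCC97L replicate 1 was the highest of all 9 libraries, and the other wild-type libraries were below every MHCC97L-Oxa library. MHCC97L-Src had a log2 fold change of -0.63 ± 0.57 (adjusted p of 0.463, edgeR) and MHCC97L-Oxa one of -0.11 ± 0.50 (adjusted p of 0.896, edgeR). Without MHCC97L replicate 1 these turned to 0.29 (adjusted p of 0.704) and 0.86 (adjusted p of 0.0310), and with the GC and length correction to 0.08 (adjusted p of 0.885) and 0.54 (adjusted p of 0.184). MHCC97L-Src differed from MHCC97L-Oxa by -0.51 ± 0.33 (adjusted p of 0.421, edgeR). Without MHCC97L-Src replicate 3, the highest of its line, this difference was -0.98, with an adjusted p of 0.00850 (edgeR). That fit called 1617 genes, against 556 with all 6 libraries.

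BCL2 (chromosome 18, 63123346 to 63320128, minus strand) was read at low counts. Its counts were 124, 49 and 44 in wild-type replicates 1, 2 and 3, 30, 45 and 38 in MHCC97L-Oxa and 40, 39 and 75 in MHCC97L-Src. A single library of MHCC97L and a single one of MHCC97L-Src stood above the other 7, and the lines overlapped in each comparison with wild-type cells. For BCL2 the log2 fold change by edgeR was -0.37 ± 0.52 in MHCC97L-Src (adjusted p of 0.645) and -0.91 ± 0.49 in MHCC97L-Oxa (adjusted p of 0.274), and it was 0.54 ± 0.32 between the resistant lines (adjusted p of 0.390). The 95% confidence interval in MHCC97L-Oxa ran from -2.03 to 0.21. Without MHCC97L replicate 1 the log2 fold changes were 0.23 and -0.26.

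Neither effector passed the test in any comparison. BAX (chromosome 19, 48954815 to 48961798, plus strand), which moves from the cytosol to mitochondria when activated, was read at 43.0, 66.1 and 71.8 CPM in MHCC97L replicates 1, 2 and 3, at 65.7, 63.2 and 69.9 CPM in MHCC97L-Oxa and at 69.4, 81.9 and 64.5 CPM in MHCC97L-Src. BAK1 (chromosome 6, 33572547 to 33580293, minus strand), which resides in the mitochondrial membrane, was read at 37.1, 59.1 and 61.6 CPM in wild-type cells, at 62.2, 64.9 and 55.5 CPM in MHCC97L-Oxa and at 57.8, 66.9 and 55.8 CPM in MHCC97L-Src. For both genes MHCC97L replicate 1 was the lowest library and the other 8 overlapped. The log2 fold change of BAX was 0.32 ± 0.31 in MHCC97L-Src and 0.14 ± 0.27 in MHCC97L-Oxa, with 95% confidence intervals from -0.37 to 1.01 and from -0.49 to 0.76. That of BAK1 was 0.26 ± 0.31 and 0.21 ± 0.28, with intervals from -0.44 to 0.96 and from -0.43 to 0.85. Adjusted p-values by edgeR lay between 0.488 and 0.769 for these 4 values. With the GC and length correction BAX was at -0.18 and -0.22 and BAK1 at -0.15 and -0.06. In the comparison of both resistant lines the intervals were narrower, from -0.15 to 0.51 for BAX and from -0.28 to 0.36 for BAK1.

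BBC3, which encodes PUMA, a BH3-only protein that binds all anti-apoptotic members and is known as a target of p53, rose in MHCC97L-Oxa. It is encoded on chromosome 19 (47220822 to 47232766, minus strand). The counts were 79, 98 and 93 in wild-type replicates 1, 2 and 3, 335, 433 and 364 in MHCC97L-Oxa and 238, 256 and 250 in MHCC97L-Src. The 3 lines formed separate ranges, with wild-type cells lowest and MHCC97L-Oxa highest. In CPM the means were 5.06 in wild-type cells, 21.0 in MHCC97L-Oxa and 14.3 in MHCC97L-Src. The rise in MHCC97L-Oxa was 4.17-fold, a log2 fold change of 2.06 ± 0.34 with a 95% confidence interval from 1.28 to 2.84 and an adjusted p of 0.0390 (edgeR). In MHCC97L-Src the log2 fold change was 1.57 ± 0.39, with an interval from 0.70 to 2.45, an unadjusted p of 0.00295 and an adjusted p of 0.0807. Between MHCC97L-Src and MHCC97L-Oxa it was -0.49 ± 0.17, with an unadjusted p of 0.0177 and an adjusted p of 0.152.

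The direction of BBC3 was the same under each of the alternatives run, but its calls were not. In MHCC97L-Oxa the adjusted p was under 0.05 in 11 of 16 alternatives and ranged from 1.09e-08 to 0.312. The call was lost with the replicate block (0.0741), without MHCC97L replicate 3 (0.157) and without MHCC97L-Oxa replicate 1 (0.243), 2 (0.312) or 3 (0.261), with log2 fold changes of 1.97 to 2.25 over the libraries left out in turn. In MHCC97L-Src 8 of 16 alternatives gave an adjusted p under 0.05, while the range was 0.000339 to 0.240. Among the 8 were DESeq2, the fit of all 9 libraries (0.00798) and the fits without MHCC97L replicate 1 (0.0319) or replicate 2 (0.0132). In the order named, these fits called 2114, 1956, 672 and 3419 genes, against 256 in the edgeR fit of the 6 libraries. With the GC and length correction the log2 fold changes were 0.96 in MHCC97L-Src (adjusted p of 0.0259) and 1.53 in MHCC97L-Oxa (adjusted p of 0.00575). The corrected difference between the resistant lines was -0.59, with an adjusted p of 0.0257.

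PMAIP1 encodes NOXA, a BH3-only protein that binds MCL1 preferentially and, like BBC3, is a known target of p53. It is encoded on chromosome 18 (59899948 to 59904306, plus strand), and its transcript has the lowest GC content of the members. The counts were 436, 99 and 75 in wild-type replicates 1, 2 and 3, 237, 256 and 200 in MHCC97L-Oxa and 177, 86 and 327 in MHCC97L-Src. MHCC97L replicate 1 was the highest of all 9 libraries, the other wild-type libraries were below every MHCC97L-Oxa library, and MHCC97L-Src spanned most of this range. PMAIP1 had a log2 fold change of 0.23 ± 0.62 in MHCC97L-Oxa (adjusted p of 0.832, edgeR) and 0.07 ± 0.70 in MHCC97L-Src (adjusted p of 0.955, edgeR). Without MHCC97L replicate 1 these values were 1.45 (adjusted p of 0.0127) and 1.23 (adjusted p of 0.198), and with the GC and length correction they were 1.15 (adjusted p of 0.117) and 1.27 (adjusted p of 0.152). MHCC97L-Src and MHCC97L-Oxa differed by -0.16 ± 0.35 (adjusted p of 0.848, edgeR).

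Because BBC3 and PMAIP1 are often listed together as targets of p53 and of stress-activated factors, the sequences before their transcription starts are shown side by side. They are the 250 bases before the start of a RefSeq transcript of each gene in GRCh38.p14, at chr19:47232668-47232917 on the minus strand for BBC3 and at chr18:59899746-59899995 on the plus strand for PMAIP1. Capitals mark motif matches. In BBC3 they are an E-box (CACGTG) and an AP-1 site (TGANTCA), and in PMAIP1 they are 4 GC boxes (GGGCGG) and a core of the cAMP response element (TGACG), read on either strand.
BBC3: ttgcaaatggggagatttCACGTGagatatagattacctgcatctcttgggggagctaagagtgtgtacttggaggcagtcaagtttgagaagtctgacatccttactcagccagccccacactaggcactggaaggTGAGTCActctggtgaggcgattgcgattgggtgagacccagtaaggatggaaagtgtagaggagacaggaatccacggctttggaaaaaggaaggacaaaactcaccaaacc
PMAIP1: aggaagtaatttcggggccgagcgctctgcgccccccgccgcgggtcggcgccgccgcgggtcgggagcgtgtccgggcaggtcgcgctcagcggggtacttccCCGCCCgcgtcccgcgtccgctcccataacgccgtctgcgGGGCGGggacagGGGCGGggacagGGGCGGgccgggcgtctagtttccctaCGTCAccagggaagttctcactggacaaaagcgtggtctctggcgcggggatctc

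Motifs were counted on both strands in windows from 250 bases before to 50 bases after the start. The BBC3 window had a GC content of 48.0% and the PMAIP1 window one of 71.3%, beside a median of 58.7% over 35116 promoters. In BBC3 the E-box is at position -232 and the AP-1 site at -113 relative to the start, and 7.26% and 7.71% of all promoters hold these motifs. In PMAIP1 the GC boxes are at -146, -106, -94 and -82 and the TGACG core at -55. A GC box is held by 45.0% of all promoters and the core by 24.6%. PMAIP1 also has an NF-kB match (in 25.6% of promoters) at -155, which touches its first GC box and is not capitalised. Promoters were found for 8 of the 10 members, and 6 of these 8 had a GC box in at least 1 promoter. The decamer of p53, which 6.63% of promoters hold, was found in BAK1 at -73 and not in these windows of BBC3 or PMAIP1. A FOXO site (GTAAACA, in 3.42% of promoters) was found in BCL2L11 at -223. The composite site of CHOP and ATF4 (TGATGNAA, in 3.62% of promoters) was found in no member. These matches describe letters in a window and not binding, which was not measured.

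**Figure D3:**
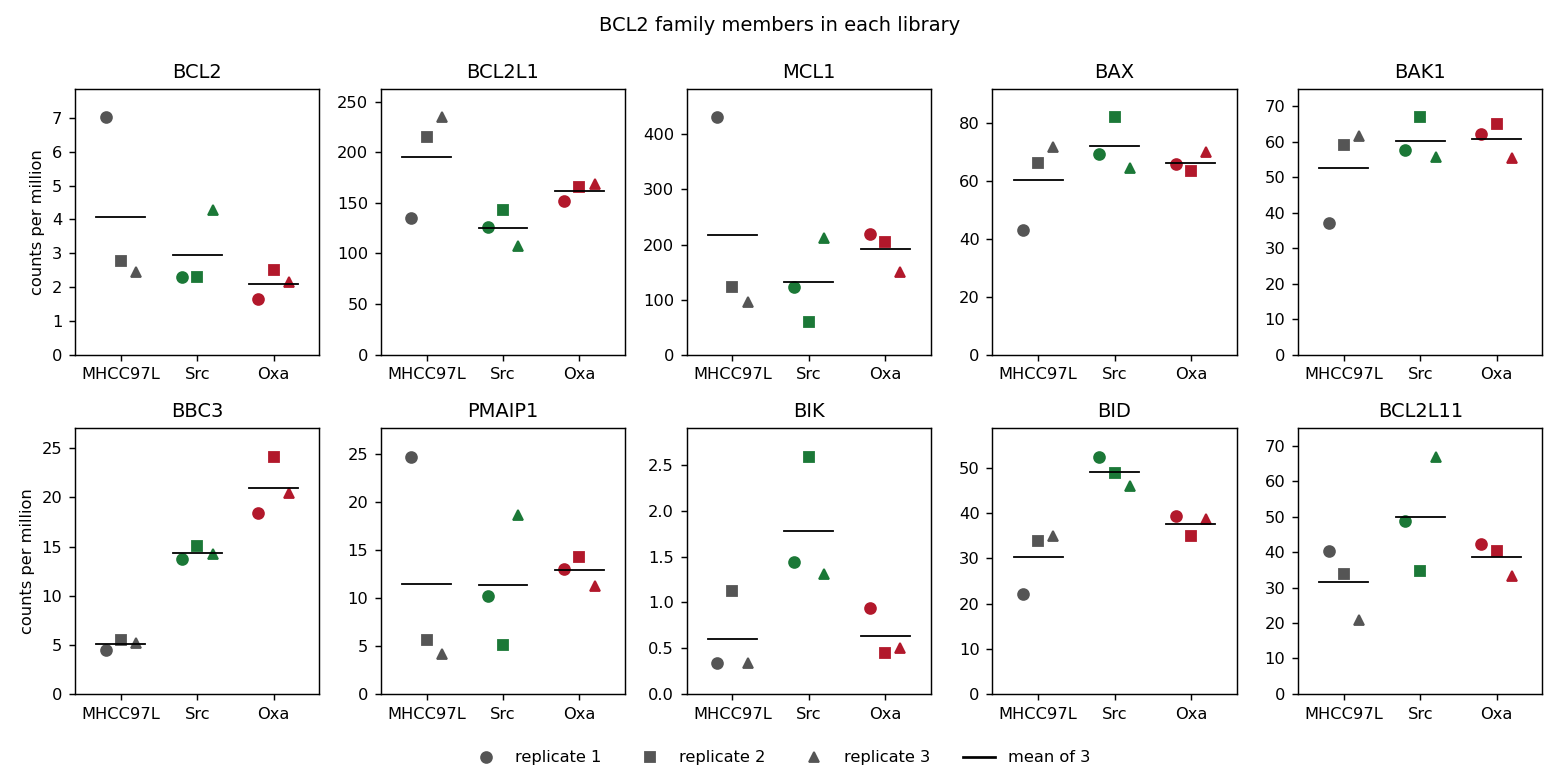
CPM of the 10 members (vertical axes, each starting at 0) in the 3 libraries of MHCC97L, MHCC97L-Src (Src) and MHCC97L-Oxa (Oxa) are drawn as 1 symbol per library, with a line at the mean of 3. The 3 lines are separated for BBC3, MHCC97L-Src is separated from both other lines for BIK and BID, and MHCC97L replicate 1 is far above its line for MCL1, PMAIP1 and BCL2.

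BIK and BID were higher in each MHCC97L-Src library than in any other library, but neither passed the adjusted test. BIK, a BH3-only protein of the endoplasmic reticulum (chromosome 22, 43110748 to 43129712, plus strand), had counts of 6, 20 and 6 in wild-type replicates 1, 2 and 3, 17, 8 and 9 in MHCC97L-Oxa and 25, 44 and 23 in MHCC97L-Src. Each MHCC97L-Src library was above all others, by as little as 3 counts, and wild-type cells and MHCC97L-Oxa overlapped. The log2 fold change in MHCC97L-Src was 1.63 ± 0.65 against MHCC97L (unadjusted p of 0.0337, adjusted p of 0.144) and 1.56 ± 0.46 against MHCC97L-Oxa (unadjusted p of 0.00704, adjusted p of 0.0945) by edgeR. The means in MHCC97L and MHCC97L-Oxa were 0.600 and 0.629 CPM, and BIK was under the filter on low counts in the fit of these 6 libraries. In the fit of all 9 libraries BIK in MHCC97L-Oxa was at 0.06 ± 0.63 (adjusted p of 0.952, edgeR), and without MHCC97L replicate 1 it was at -0.17 (adjusted p of 0.885). Without MHCC97L replicate 2, the wild-type library with most counts, MHCC97L-Src was at 2.56 (log2), with an adjusted p of 0.0130 (edgeR). That fit called 3419 genes, against 256 with all 6 libraries. Without MHCC97L-Src replicate 3, MHCC97L-Src differed from MHCC97L-Oxa by 1.79, with an adjusted p of 0.0273 (edgeR), in a fit that called 1617 genes, against 556 with all 6 libraries.

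BID (chromosome 22, 17734138 to 17774770, minus strand), which links death receptors to mitochondria once caspase-8 has cleaved it, was read at 22.0, 33.8 and 34.9 CPM in MHCC97L replicates 1, 2 and 3, at 39.4, 34.9 and 38.7 CPM in MHCC97L-Oxa and at 52.5, 48.9 and 46.0 CPM in MHCC97L-Src. All MHCC97L-Src libraries were above all others, and the lowest MHCC97L-Oxa library was level with the highest wild-type one. Against wild-type cells BID was at 0.76 ± 0.31 (log2) in MHCC97L-Src (adjusted p of 0.151) and 0.32 ± 0.29 in MHCC97L-Oxa (adjusted p of 0.505), and the resistant lines differed by 0.44 ± 0.14 (unadjusted p of 0.00992, adjusted p of 0.113), all by edgeR. None of 16 alternatives gave BID an adjusted p under 0.05 in either comparison with MHCC97L, and the lowest was 0.0570. Of 15 alternatives between the resistant lines, 1 called it, the fit without MHCC97L-Src replicate 3 (adjusted p of 0.0290). That fit called 1617 genes, against 556 with all 6 libraries.

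BCL2L11 encodes BIM, a BH3-only protein whose transcription is held down by growth factors through FOXO factors (chromosome 2, 111119378 to 111168447, plus strand). It was read at 40.2, 33.7 and 20.7 CPM in MHCC97L replicates 1, 2 and 3, at 42.3, 40.4 and 33.2 CPM in MHCC97L-Oxa and at 48.6, 34.5 and 66.9 CPM in MHCC97L-Src. MHCC97L-Src held the highest libraries but also one at the wild-type level, so that all lines overlapped. BCL2L11 was at 0.73 ± 0.34 (log2) in MHCC97L-Src (adjusted p of 0.185), 0.32 ± 0.30 in MHCC97L-Oxa (adjusted p of 0.507) and 0.41 ± 0.20 between the resistant lines (adjusted p of 0.285), all by edgeR. With the GC and length correction these values were 1.21 (adjusted p of 0.0377), 0.71 (adjusted p of 0.140) and 0.51 (adjusted p of 0.0131). Over all alternatives BCL2L11 was called in 2 of 16 in MHCC97L-Src, 0 of 16 in MHCC97L-Oxa and 2 of 15 between the resistant lines.

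Ratios between members of the same library compare levels per length and were described without a test. The ratio of BBC3 to BCL2L1 was 0.0515, 0.0414 and 0.0315 in wild-type replicates 1, 2 and 3, 0.180, 0.243 and 0.202 in MHCC97L-Oxa and 0.187, 0.192 and 0.216 in MHCC97L-Src. Each resistant library was above each wild-type library, and the resistant lines overlapped. On the log2 scale the means were -4.62 ± 0.35 (SD, n = 3) in wild-type cells, -2.34 ± 0.11 in MHCC97L-Src and -2.27 ± 0.22 in MHCC97L-Oxa, a difference from wild-type cells of 2.28 and 2.35. These ratios were not corrected for GC content, which is 69.7% for BBC3 and 56.9% for BCL2L1. The ratio of PMAIP1 to MCL1, its preferred partner, was 0.164, 0.131 and 0.129 in wild-type cells, 0.170, 0.204 and 0.206 in MHCC97L-Oxa and 0.252, 0.241 and 0.255 in MHCC97L-Src. The 3 lines formed separate ranges although neither gene was separated on its own. Both genes are GC-poor and were high together in MHCC97L replicate 1. The log2 ratio was higher than in wild-type cells by 0.83 in MHCC97L-Src and by 0.46 in MHCC97L-Oxa on average.

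The ratio of BAX to BCL2, which is often used as an index of readiness for apoptosis, did not separate the lines. Its log2 mean was 6.67 ± 1.16 in wild-type cells, 7.39 ± 0.71 in MHCC97L-Src and 7.61 ± 0.45 in MHCC97L-Oxa (SD, n = 3), and it rested on 30 to 124 counts of BCL2 per library. The summed FPKM of the 7 pro-apoptotic members was 69.6 to 77.6 in wild-type cells, 95.9 to 98.2 in MHCC97L-Src and 90.7 to 92.4 in MHCC97L-Oxa, in 3 separate ranges. The BH3-only members supplied 18.5 to 32.1 FPKM of this sum in wild-type cells. They supplied 32.2 to 43.5 in MHCC97L-Src and 32.3 to 36.7 in MHCC97L-Oxa. BAD, a BH3-only gene outside the members, is not in the sum. It was at 20.7 to 38.3 FPKM in wild-type cells, 27.8 to 44.2 in MHCC97L-Src and 35.3 to 37.6 in MHCC97L-Oxa. Its spread within MHCC97L-Src was wider than the gap between the sums of the resistant lines. The separation of these lines therefore holds for the 7 members only. The sum of the 3 anti-apoptotic members was 102 ± 35.7 FPKM in wild-type cells, 64.1 ± 16.9 in MHCC97L-Src and 89.7 ± 8.71 in MHCC97L-Oxa, with overlapping ranges between each resistant line and MHCC97L. The log2 ratio of the pro-apoptotic to the anti-apoptotic sum was -1.04, -0.10 and -0.08 in wild-type replicates 1, 2 and 3, -0.05, -0.03 and 0.19 in MHCC97L-Oxa and 0.64, 1.01 and 0.23 in MHCC97L-Src. The 3 lines stood in separate ranges in this ratio too, with MHCC97L lowest and MHCC97L-Src highest. However, MHCC97L replicates 2 and 3 and the lower MHCC97L-Oxa libraries were nearly level. BAD is left out of this ratio as well.

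**Figure D4:**
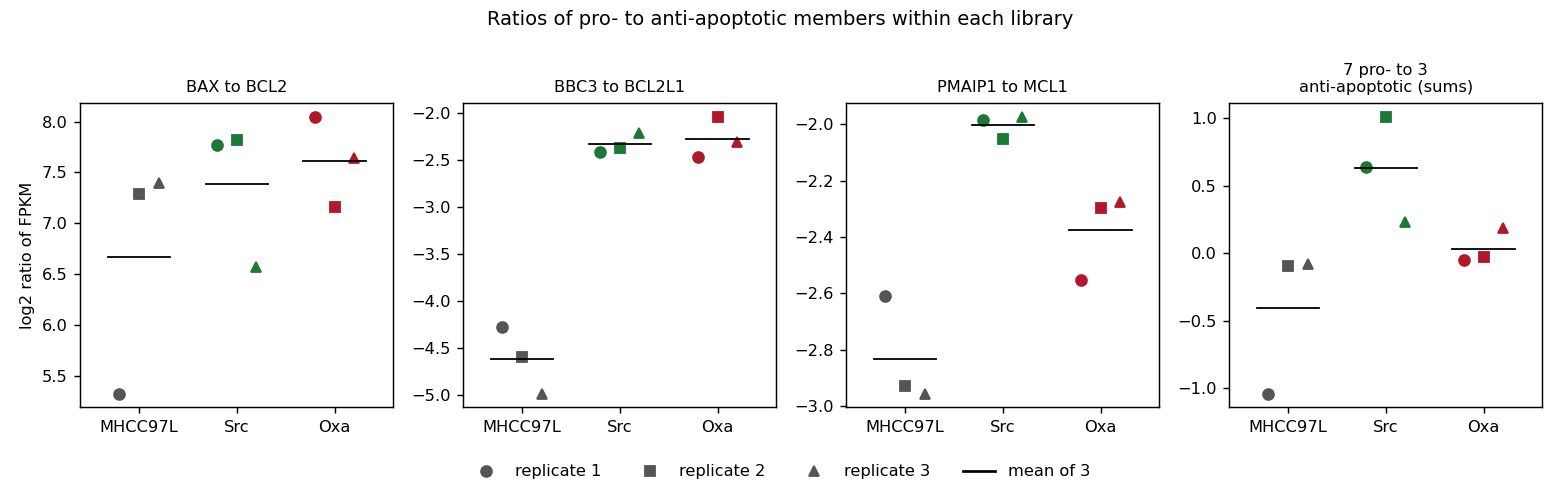
Log2 ratios of FPKM between pro-apoptotic and anti-apoptotic members (vertical axes, not starting at 0) are drawn with 1 symbol per library and a line at the mean of 3 for MHCC97L, MHCC97L-Src (Src) and MHCC97L-Oxa (Oxa). The ratio of BBC3 to BCL2L1 is between -4.99 and -4.28 in MHCC97L and between -2.47 and -2.04 in the resistant lines, while the ratio of BAX to BCL2 overlaps in all lines.

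Among 13 further genes of the family, 9 could be tested, and BNIP3 was the 1 that passed in both resistant lines. BNIP3 encodes a mitochondrial BH3-like protein that is induced by hypoxia and takes part in mitophagy. Its counts were 1114, 988 and 793 in wild-type replicates 1, 2 and 3, 4114, 3885 and 3623 in MHCC97L-Oxa and 2333, 2160 and 1783 in MHCC97L-Src. The 3 lines formed separate ranges in the same order as for BBC3. BNIP3 rose 2.37-fold in MHCC97L-Src (log2 fold change of 1.24 ± 0.25, adjusted p of 0.0471) and 4.03-fold in MHCC97L-Oxa (2.01 ± 0.20, adjusted p of 0.00898), and it was lower in MHCC97L-Src than in MHCC97L-Oxa (-0.77 ± 0.14, adjusted p of 0.0125), all by edgeR. Leaving out MHCC97L replicate 3 or any library of the resistant line raised the adjusted p above 0.05, to between 0.115 and 0.203 in MHCC97L-Src for resistant libraries and 0.150 for MHCC97L replicate 3, and to between 0.0786 and 0.117 in MHCC97L-Oxa for these libraries together. Between the resistant lines the call was lost without MHCC97L-Oxa replicate 1 (0.0704) or 2 (0.0738) and without MHCC97L-Src replicate 1 (0.0544), and it was also lost with all 9 libraries in 1 fit (0.166). In MHCC97L-Src it was lost with the replicate block and correction too (0.0597).

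BMF, a BH3-only protein that is tethered to the cytoskeleton until cells detach, was lowest in MHCC97L-Src. Its counts were 501, 736 and 598 in wild-type replicates 1, 2 and 3, 463, 514 and 493 in MHCC97L-Oxa and 208, 215 and 195 in MHCC97L-Src. Every MHCC97L-Src library was below all others. BMF was lower in MHCC97L-Src than in MHCC97L-Oxa by a log2 fold change of -1.14 ± 0.17 (adjusted p of 0.00423, edgeR), a call kept in 14 of 15 alternatives and lost with all 9 libraries in 1 fit (0.108). Against MHCC97L the value was -1.46 ± 0.34 (unadjusted p of 0.00222, adjusted p of 0.0737). The latter passed in 7 of 16 alternatives, among them the GC and length correction (adjusted p of 0.00286). HRK, a BH3-only gene known mainly from neurons, was at -0.89 ± 0.37 in MHCC97L-Oxa (unadjusted p of 0.0426, adjusted p of 0.215). BCL2A1 and BCL2L14 had no counts in any library, which allows at most 0.177 CPM in each, and BCL2L10 had 3 counts in MHCC97L replicate 1 and none elsewhere. The median log2 fold change of the 9 tested genes was 0.08 in MHCC97L-Src and 0.28 in MHCC97L-Oxa.

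Downstream of the mitochondria, none of 17 genes, which encode cytochrome c, apoptosome components, executioner caspases, inhibitors of apoptosis and mitochondrial channels, passed the adjusted test by edgeR in either comparison with MHCC97L. At an unadjusted p under 0.05 there were 4 lower genes and no higher one in MHCC97L-Src, and 3 lower genes and 1 higher one in MHCC97L-Oxa. Of all genes tested, 13.6% were lower and 8.84% higher at that level in MHCC97L-Oxa. The shares for MHCC97L-Src were 20.1% and 9.4%. DESeq2 called 2 lower genes in MHCC97L-Src, beside 11.6% of all genes lower and 6.01% higher, and 0 in MHCC97L-Oxa, beside 2.67% lower and 4.73% higher. The number called by limma-trend was 0 in both. The largest values were those of XIAP, BIRC2 and BIRC3, inhibitors of apoptosis whose transcripts have a GC content of 34.8% to 39.0%. XIAP was at -2.22 ± 0.80 in MHCC97L-Src, BIRC2 at -2.20 ± 0.67 there and at -1.68 ± 0.67 in MHCC97L-Oxa, and BIRC3 at -2.08 ± 0.81 and -2.77 ± 0.89. The counts of XIAP were 699, 52 and 187 in MHCC97L replicates 1, 2 and 3, so that replicate 2 lay within the range of 46 to 82 in MHCC97L-Src. CYCS, which encodes cytochrome c, was at -0.88 ± 0.38 in MHCC97L-Oxa. With the GC and length correction, XIAP was at -0.49, BIRC2 at -0.72 and -0.55, BIRC3 at -0.49 and -1.60, and CYCS at -0.07. Without MHCC97L replicate 1, XIAP was at -0.87, BIRC2 at -1.41 and -0.84, BIRC3 at -1.45 and -2.10, and CYCS at -0.20. CASP9, the initiator caspase of the apoptosome, was lower in MHCC97L-Src than in MHCC97L-Oxa by a log2 fold change of -0.52 ± 0.12 (adjusted p of 0.0410, edgeR), with 1014, 1032 and 1015 counts against 1475, 1705 and 1576. That call was kept in 8 of 15 alternatives and was lost when any MHCC97L-Oxa library or MHCC97L-Src replicate 1 was left out (adjusted p of 0.104 to 0.244). It was also lost with all 9 libraries in 1 fit (0.713), with DESeq2 size factors (0.0668) and with the replicate block (0.0976).

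Of 13 upstream regulators tested, among them p53 family members, E2F1, FOXO factors, ATF4, DDIT3, JUN, MYC and NF-kB subunits, none passed the adjusted test by edgeR in either comparison with MHCC97L, and in each there were 2 higher genes and no lower one at an unadjusted p under 0.05. DESeq2 called 2 higher genes in each, and limma-trend called 0. The shares of all genes are those given for the downstream genes. ATF4, a transcription factor of the integrated stress response, was among them in both comparisons. Its counts were 11983, 17181 and 16489 in wild-type replicates 1, 2 and 3, 25613, 27796 and 27975 in MHCC97L-Oxa and 25370, 24393 and 25098 in MHCC97L-Src. Each resistant library was above each wild-type one. The log2 fold change of ATF4 was 0.82 ± 0.26 in MHCC97L-Src (adjusted p of 0.111) and 0.82 ± 0.24 in MHCC97L-Oxa (adjusted p of 0.159), and the adjusted p was under 0.05 in 6 and 5 of 16 alternatives. Without MHCC97L replicate 1 ATF4 was at 0.67 (adjusted p of 0.0447) and 0.73 (adjusted p of 0.00397), and with the GC and length correction at 0.42 (adjusted p of 0.0371) and 0.53 (adjusted p of 0.0142), by edgeR. MYC was at 0.71 ± 0.23 in MHCC97L-Src (adjusted p of 0.112) and was called in 4 of 16 alternatives. JUN, a component of AP-1, was at 0.74 ± 0.24 in MHCC97L-Oxa (adjusted p of 0.185) and was called in 5 of 16 alternatives, among them those without MHCC97L replicate 1 (0.67, adjusted p of 0.00599) and with the correction (0.58, adjusted p of 0.0144). JUN was lower in MHCC97L-Src than in MHCC97L-Oxa by a log2 fold change of -1.30 ± 0.13 (adjusted p of 0.000385, edgeR), a call that was kept in all 15 alternatives. Its counts were 473, 463 and 516 against 1348, 1220 and 1281.

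Of 9 tested genes for the turnover of MCL1 protein, 3 were lower and 0 higher at an unadjusted p under 0.05 in MHCC97L-Src by edgeR. Of all genes tested, 20.1% were lower and 9.4% higher at that level. USP9X and GSK3B were among the 3, and neither passed the adjusted test by edgeR. USP9X, which removes ubiquitin from MCL1, was at a log2 fold change of -1.84 ± 0.67 (adjusted p of 0.128), and GSK3B, a kinase that marks MCL1 for degradation, at -1.02 ± 0.41 (adjusted p of 0.149). Their transcripts have a GC content of 40.5% and 42.1%, and MHCC97L replicate 1 was the highest library for each, with 1268 and 2157 counts. With the GC and length correction the values were -0.35 and 0.04, and without MHCC97L replicate 1 they were -1.14 and -0.37.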

How the data were processed

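The series holds 3 RNA libraries of each of the lines MHCC97L, MHCC97L-Oxa and MHCC97L-Src, and libraries were grouped by the cell line and drug in their labels. The authors deposited raw read counts per gene, and the authors deposited FPKM values (fragments relative to library size and transcript length) of the same 20030 genes. The submitters' processing notes name Trimmomatic 0.36, HISAT2 2.2.1.0 and GRCh38.p12. The programs used for counting and for FPKM, and whether counting used the strand of the stranded kit, are not given in the sources used here.

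Members were taken by symbol. The members and the gene lists were chosen with earlier results of these data known, and the study itself picked BBC3, BIK and BIRC3 from these libraries, so their values are not independent support for that choice. All members are named. Of the further family, downstream, upstream and turnover lists, a gene is named if its adjusted p was under 0.05 in any comparison, if it had one of the 3 largest absolute log2 fold changes of its list at an unadjusted p under 0.05 against MHCC97L, or if no library had more than 3 counts. BAD is named in addition, beside BMF and HRK, as a BH3-only gene, and BCL2L2 as an anti-apoptotic one. Named markers were chosen after their values were seen. A gene of the protein turnover list that meets this rule is not reported here.

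Each pair of lines was compared on the counts of its 6 libraries by edgeR's quasi-likelihood test (edgeR 4.0.16, R 4.3.3), with filterByExpr at a minimum count of 10, TMM normalization and Benjamini-Hochberg adjustment over all genes tested. Each standard error is the absolute log2 fold change over the root of its F statistic. Alternatives were DESeq2 1.42.0, its size factors, no filter, a replicate block, all 9 libraries in one fit, limma-trend (limma 3.58.1) on log2(FPKM + 1) or log2(FPKM + 0.1), each library left out in turn, and offsets from natural splines (5 degrees of freedom each) for GC content and length, with and without the block. The spline correction without MHCC97L replicate 1 was added after seeing the data. GC content and length came from the longest GENCODE release 29 transcript, found for 19343 genes. Exons of BCL2L1, BAK1, BBC3 and BCL2L11 overlap genes on the opposite strand by 943, 91, 80 and 727 bases, and reads from these overlaps cannot be assigned without strand. Promoters came from RefSeq (GRCh38.p14). Tests were also run on simulated counts with known changes and a common dispersion. These counts held no GC or length deviation like that of MHCC97L replicate 1, so they do not show how the tests behave on these libraries.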

Additional observations from a re-analysis of the deposited data

How the results depend on the processing

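Which members were called depended on the processing, whereas the direction of BBC3, BCL2L1, BID and BCL2L11 was kept in each alternative run for the 3 comparisons, as was that of BIK in both comparisons of MHCC97L-Src. In MHCC97L-Src against MHCC97L, 256 genes were called, and the number became 2114 with DESeq2, 702 without the filter, 988 with the replicate block, 1279 with the GC and length correction, 1956 with all 9 libraries, 1376 with the correction without MHCC97L replicate 1, and 22 to 3419 with 1 library left out. Members called went from 0 to 1 with DESeq2, limma-trend on either FPKM scale and all 9 libraries, to 3 with the correction with or without MHCC97L replicate 1, and to between 0 and 2 with 1 library left out. In MHCC97L-Oxa 115 genes were called, against 893 with DESeq2, 1555 with the correction, 609 with block and correction, 252 and 256 with limma-trend on log2(FPKM + 1) and log2(FPKM + 0.1), 495 with all 9 libraries, 2378 with the correction without MHCC97L replicate 1, and 2 to 2705 with 1 library left out. Members called there were 1, against 0 with the replicate block, 2 with the correction, 3 with the correction without MHCC97L replicate 1 and 0 to 4 with 1 library left out. Between the resistant lines 556 genes became 839 with DESeq2, 1153 with the correction, 86 with all 9 libraries and 167 to 1617 with 1 library left out, and 0 members became 3 with the correction and 0 to 3 with 1 library left out. By fold and unadjusted p, 2 members in MHCC97L-Src became 3 with the correction, with or without MHCC97L replicate 1, and 1 to 2 with 1 library left out. In MHCC97L-Oxa 1 member became 2 with the correction, alone, with the block or without MHCC97L replicate 1, and 1 to 2 with 1 library left out. Between the resistant lines 1 became 0 with limma-trend on log2(FPKM + 1). Leaving out a library also lowers the number of samples in the fit, and the remaining causes were not tested.

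Signs turned as follows. In MHCC97L-Src, the correction gave 0.33 for BCL2, 0.078 for MCL1, -0.18 for BAX and -0.15 for BAK1, together with the replicate block 0.32, 0.064, -0.18 and -0.15, and without MHCC97L replicate 1 it gave 0.38, 0.34, -0.16 and -0.18. GSK3B was at 0.037 with the correction and 0.082 with block and correction. In MHCC97L-Oxa, MCL1 was at 0.16 with the replicate block and at 0.14 and 0.15 with limma-trend. The correction gave 0.54 for MCL1, -0.22 for BAX and -0.061 for BAK1, with the block 0.58, -0.22 and -0.063, and without MHCC97L replicate 1 it gave 0.80, -0.20 and -0.095. Between the resistant lines, the correction gave -0.09 for BAK1 and 0.13 for PMAIP1, with the block -0.085 and 0.045, and limma-trend gave BAK1 -0.012 on either scale. With 1 library left out, in MHCC97L-Src BCL2 ranged from -0.66 to 0.23, MCL1 from -1.08 to 0.29 and PMAIP1 from -0.42 to 1.23, in MHCC97L-Oxa MCL1 from -0.45 to 0.86, BAX from -0.0013 to 0.32 and PMAIP1 from -0.15 to 1.45, and between the resistant lines BAK1 from -0.11 to 0.15 and PMAIP1 from -0.66 to 0.15.

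Whether the replicate numbers pair the libraries was not settled. Same-numbered libraries correlated in their deviations at a mean of -0.0879, 0.0273 and -0.108 in the 3 comparisons, with single values from -0.634 to 0.423. These correlations cannot decide it, since the deviations also hold the GC content differences between libraries. With the replicate block the adjusted p of BBC3 in MHCC97L-Oxa was 0.0741 and that of CASP9 between the resistant lines 0.0976. All 8 ratio differences moved by less than 1 SD, pooled over the lines compared, when CPM replaced FPKM. Transcript length largely cancels in such a difference, so this check is weak. The 48 values with 1 library left out also moved by less than 1 SD. With 3 libraries per line that outcome was fixed in advance, and it says nothing about how stable the ratios are. Depth limits BIK (6 to 44 counts) and BCL2 (30 to 124 counts).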
